A study of Mus musculus with 8 samples.

Results

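The genes described here are the mouse Wnt ligands, their Frizzled receptors, the co-receptors Lrp5 and Lrp6, and the secreted inhibitors of the Sfrp and Dkk families. They were chosen by symbol from the protein-coding genes of GENCODE M21, which gave 39 of 21938 genes: 19 Wnt ligands, 10 Fzd receptors, 2 Lrp co-receptors and 8 inhibitors (Sfrp1, Sfrp2, Sfrp4, Sfrp5 and Dkk1 to Dkk4). Open chromatin was measured by ATAC-seq, in which the transposase Tn5 cuts accessible DNA, in cell cultures from PyMT mammary tumors of FBV/N mice. PyMT is a viral oncoprotein that drives mammary tumors in this model, and all groups carried it. The 4 groups were WT luminal cells (libraries BM1 and BM5), WT basal-like cells (BM2 and BM6), Lats1-CKO luminal cells, which lack the Hippo pathway kinase LATS1 (BM3 and BM7), and Lats1-CKO basal-like cells (BM4 and BM8). Cells were sorted by the surface proteins EpCAM and CD49f, luminal cells as EpCAM-high and CD49f-high and basal-like cells as EpCAM-low and CD49f-high, and were then grown for a short time, so each library was made from cultured descendants of the sorted cells. The paper describes the 2 libraries of a group as biological replicates. It does not say which libraries came from separate tumors, so the spread within a group may not measure variation between tumors.

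Wnt proteins are secreted, lipid-modified ligands that bind a Frizzled receptor. With Lrp5 or Lrp6 as co-receptor, the bound receptor stabilizes β-catenin, which then acts on target genes with TCF/LEF factors, whereas other ligands, such as Wnt5a, are best known for signalling without β-catenin. Sfrp proteins bind Wnt ligands outside the cell, and Dkk1, Dkk2 and Dkk4 bind Lrp5 and Lrp6. In the mammary gland, Wnt4 is induced by progesterone in luminal cells and acts on basal cells, and the pathway is known for its part in maintaining mammary stem cells.

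Each peak carried a score that depends on sequencing depth, so it was expressed as its percentile among all peaks of the same library. A gene's promoter value was the highest percentile of the peaks within 1 kb of any of its transcription start sites (TSSs), and 0 where no peak was called. The lists hold 14753 to 99022 peaks per library and no reads, so the depth is unknown and no peak means only that none was called. BM3 stood apart with 14753 peaks, against 51497 to 99022 in the other 7 libraries, and results that rest on it are given with and without it. A peak at the Lats1 start was called in every library but BM3, and a promoter peak does not check a deletion elsewhere in the gene. Of 15 luminal marker genes, 15, 13 and 14 had a promoter peak in the luminal libraries BM1, BM5 and BM7, and 8 in BM3. In the basal-like libraries 10 and 12 had one in WT and 7 and 8 in Lats1-CKO cells. The luminal libraries thus lay above the basal-like ones without BM3 and overlapped them with it. Of all protein-coding genes, 34.3% had a promoter peak in BM3 and 50.5% to 58.8% in the other libraries. Among 12 basal-like markers the counts were 7, 7 and 9 in BM1, BM5 and BM7, 5 in BM3, and 6 or 7 in each basal-like library. These markers did not separate the populations, and the basal keratin gene Krt5 had a promoter peak in BM7 only.

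Windows at 3 peak regions are printed because results turn on them: an intronic region of Lrp5 that differed between genotypes when BM3 was left out, the start of Fzd4, whose promoter peak had the highest median percentile, and an intronic region of Wnt4, which was chosen after its values were seen. They are plus strand sequence of GRCm38, 5′ to 3′, from the central 300 bp of the region, with annotated exons left out, and capitals mark CpG dinucleotides. The center of the Fzd5 promoter region lies in annotated exons and is not printed.
Lrp5, chr19:3674168-3674467, intron: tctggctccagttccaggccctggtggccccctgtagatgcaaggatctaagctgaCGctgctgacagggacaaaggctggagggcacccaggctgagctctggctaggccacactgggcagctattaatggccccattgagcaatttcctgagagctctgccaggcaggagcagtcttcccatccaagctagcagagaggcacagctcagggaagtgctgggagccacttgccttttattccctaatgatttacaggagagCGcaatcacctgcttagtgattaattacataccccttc
Fzd4, chr7:89404223-89404354, upstream of the TSS: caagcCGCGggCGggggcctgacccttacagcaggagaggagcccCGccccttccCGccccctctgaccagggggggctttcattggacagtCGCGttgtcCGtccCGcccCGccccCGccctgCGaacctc
Wnt4, chr4:137287286-137287585, intron: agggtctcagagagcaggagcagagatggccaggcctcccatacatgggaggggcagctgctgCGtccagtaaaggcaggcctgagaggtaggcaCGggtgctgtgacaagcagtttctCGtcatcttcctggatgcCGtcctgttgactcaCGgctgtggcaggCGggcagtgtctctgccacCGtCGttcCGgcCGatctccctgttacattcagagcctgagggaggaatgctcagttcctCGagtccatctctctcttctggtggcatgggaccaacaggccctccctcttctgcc
The Fzd4 window holds 12 CpG dinucleotides in 132 bp, whereas the Lrp5 window holds 2 and the Wnt4 window 11 in 300 bp each. The Wnt4 window was the only 1 of the 3 to hold a TEAD core (GGAATG) and an AP-1 motif (TGANTCA), 1 of each, and none of the 3 held a TCF/LEF core (CTTTGA).

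Promoter peaks were common at receptor genes and sparse at ligand and inhibitor genes. Of the 10 Fzd receptors, 10, 7, 9, 9, 6, 9, 9 and 9 were marked by a promoter peak in BM1, BM5, BM2, BM6, BM3, BM7, BM4 and BM8, the order used for all values below. Of the 19 ligands, 9, 6, 9, 5, 0, 7, 7 and 7 had one, and of the 8 inhibitors 2, 1, 2, 1, 1, 1, 3 and 1. Over all 39 genes this gave 15 to 23 genes in the 7 libraries other than BM3 and 7 in BM3. The share was 59.0% in BM1, where 57.3% of all protein-coding genes had a promoter peak, and 17.9% in BM3, where 34.3% had one. In the other 6 libraries it was 38.5% to 53.8%, against 50.5% to 58.8% of all genes. BM1 was thus the only library in which the Wnt pathway genes were marked at least as often as genes in general.

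**Figure D1:**
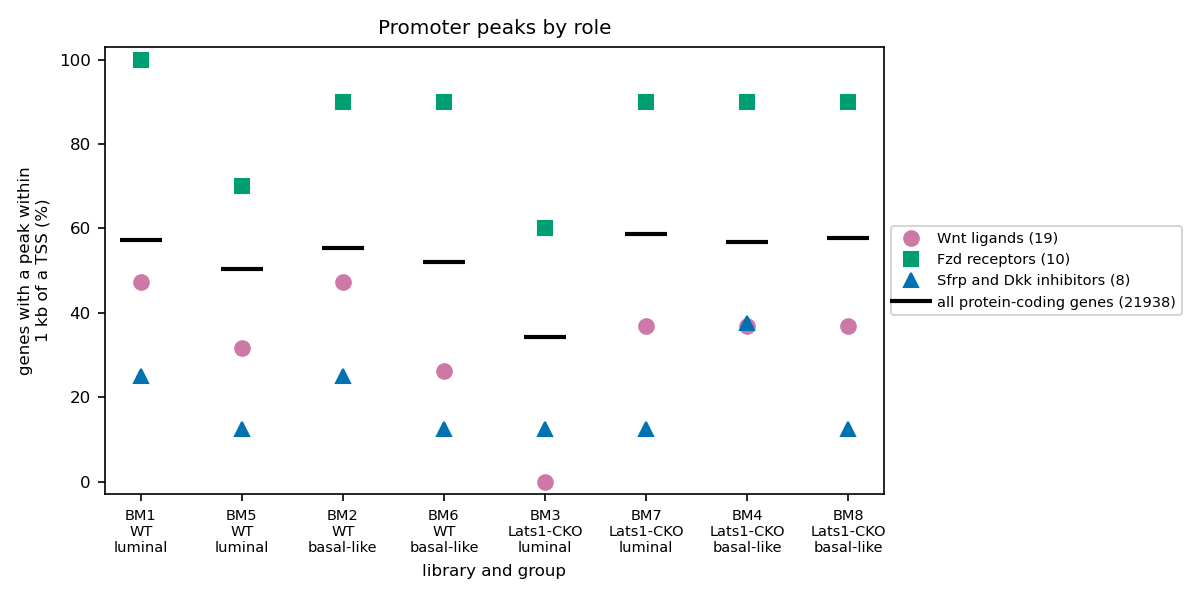
Share of Wnt ligands (circles), Fzd receptors (squares) and Sfrp and Dkk inhibitors (triangles) that had a promoter peak, in percent, for each of the 8 libraries. The black bar is the share of all 21938 protein-coding genes, 34.3% to 58.8%; receptors sit above it and ligands and inhibitors below it in each library.

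A promoter peak, at any TSS of the gene, was called in all 8 libraries for 6 of the 39 genes (15.4%, against 32.3% of all protein-coding genes): the receptors Fzd1, Fzd2, Fzd4, Fzd5 and Fzd7 and the inhibitor Sfrp1. Without BM3, Wnt5b, Wnt7b, Fzd6, Fzd8 and Lrp6 joined them, which made 11 genes (28.2%, against 43.9%). No promoter peak was called in any library for 7 genes (17.9%, against 33.6%), namely the ligands Wnt3a, Wnt6 and Wnt8a and the inhibitors Dkk1, Dkk3, Dkk4 and Sfrp5. A promoter peak in a single library was found for 9 genes (23.1%, against 5.04%): Wnt2, Wnt3, Wnt4, Wnt5a, Wnt9b, Wnt16, Fzd10, Sfrp2 and Sfrp4. The remaining genes had one in 2 to 7 libraries. The filter of at least 1 promoter peak in 1 library, used for the tests below, was passed by 32 of the 39 genes.

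**Figure D2:**
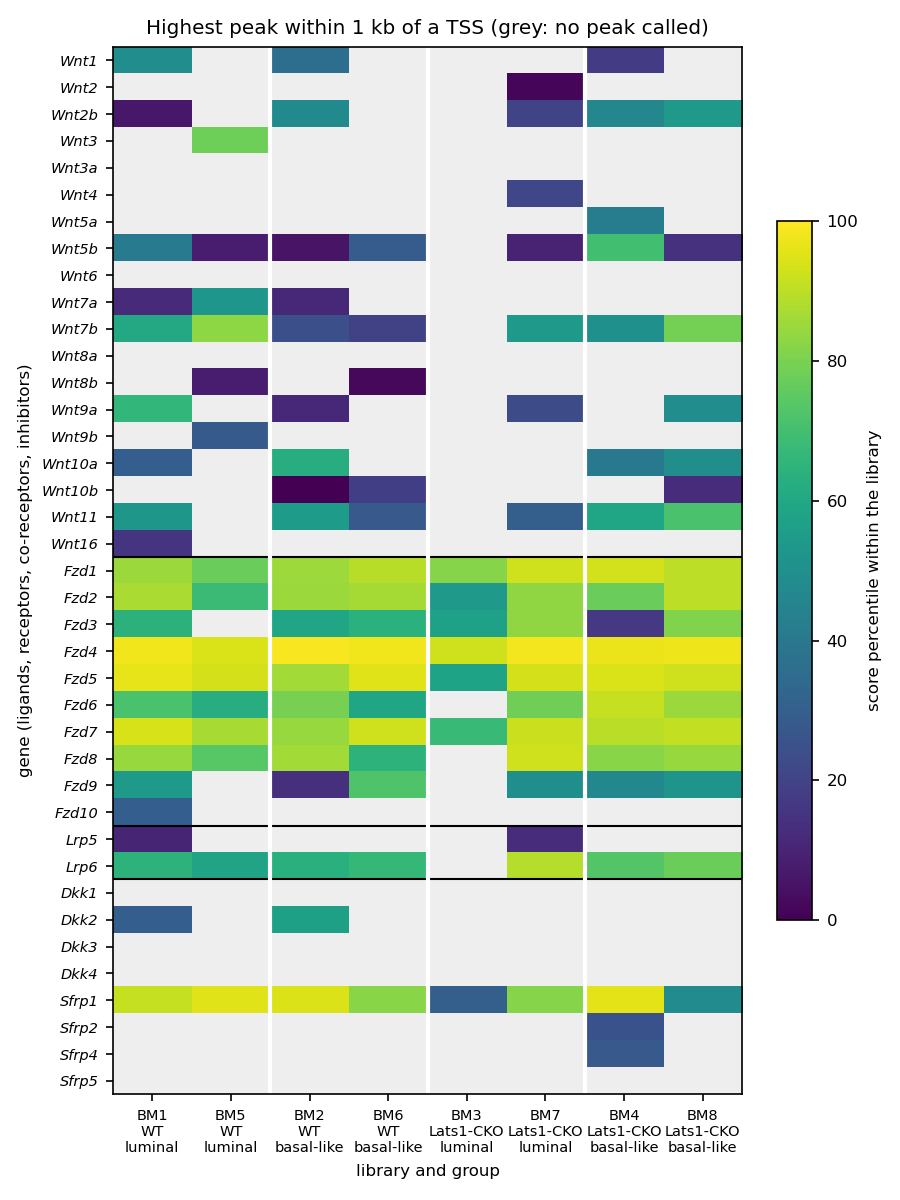
Score percentile of the highest peak within 1 kb of a TSS for the 39 genes (rows, with ligands, receptors, co-receptors and inhibitors separated by lines) in the 8 libraries (columns, by group), on a color scale from 0 to 100; grey marks no called peak. The receptor block is nearly filled, with 6 of 10 genes marked in BM3, where no ligand had a peak.

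Among the receptors, Fzd4, which also binds the non-Wnt ligand norrin, had the highest values, at percentiles 97.7, 94.4, 98.9, 97.7, 92.9, 98.3, 97.1 and 97.6. The groups overlapped, and its window also holds the start of the neighboring gene Tmem135. Fzd5 had 96.3, 93.5, 86.0, 95.0, 58.2, 93.7, 94.3 and 92.8. Fzd7, a receptor known in mammary basal cells and basal-like breast cancer, had 93.8, 87.0, 84.6, 92.8, 67.6, 92.2, 89.6 and 90.9. For both, the 7 libraries other than BM3 lay in 1 narrow range and BM3 lay below it. Fzd1 had 84.8, 77.1, 85.5, 89.1, 82.0, 92.7, 93.2 and 89.8, and BM3 lay among the WT libraries. Fzd2 had 87.5, 68.3, 85.1, 86.7, 54.1, 83.5, 77.0 and 90.0, with BM5 and BM3 lowest. These 5 promoters were thus marked in luminal and basal-like cells of each genotype.

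The other receptors varied more. Fzd6, known for planar cell polarity, had 71.3, 62.4, 79.4, 59.1, 0, 78.4, 91.1 and 84.8, and Lats1-CKO basal-like cells had the highest values. Fzd8 had 84.5, 73.9, 86.2, 64.5, 0, 92.7, 82.4 and 84.4. Fzd3 was not called in BM5 and was low in BM4, with 64.4, 0, 59.3, 63.8, 57.3, 83.2, 16.7 and 81.1. Fzd9 was absent from BM5 and BM3, with 53.6, 0, 13.8, 72.5, 0, 49.98, 46.6 and 51.8. Fzd10 had a peak in BM1 only, at 29.9. At Fzd3 the 2 libraries of WT luminal cells and those of Lats1-CKO basal-like cells were far apart.

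Lrp5 and Lrp6 encode alternative co-receptors for the same ligands, and their starts differed in these lists. Lrp6 had 64.7, 58.4, 63.3, 66.5, 0, 88.8, 73.2 and 77.7, so it was called in every library but BM3. At Lrp5 the peak was called in BM1 and BM7 only, at 10.4 and 12.6, both near the bottom of the library. Peaks were nevertheless called within Lrp5. The gene, 102 kb long, held 22 distinct peak regions, of which 6 were called in 1 library only and 1 in all 8. Its intronic region at chr19:3638557-3639210 had a peak in all 8 libraries, at percentiles 68.3, 89.0, 72.3, 99.0, 67.6, 90.4, 89.7 and 91.6. Peaks at chr19:3681417-3681805 and chr19:3669143-3669509 were called in every library but BM3.

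Of the ligands, Wnt7b and Wnt5b were those with promoter peaks in 7 libraries. Wnt7b had 60.5, 83.0, 24.3, 19.6, 0, 54.1, 50.3 and 79.0. In WT cells its luminal values were above its basal-like values, whereas in Lats1-CKO cells the luminal library BM7 lay between the basal-like libraries BM4 and BM8. Wnt5b, a ligand of the pathway without β-catenin, had 40.8, 8.20, 5.28, 29.2, 0, 10.1, 69.6 and 14.2. Its values were low except in BM4, and they compare unlike peaks. Those of BM5 and BM2 lay in regions at an internal TSS, centered 76753 and 76494 bp from the first TSS. Those of BM1, BM6, BM7, BM4 and BM8 lay in a region centered 715 bp from the first TSS. Wnt11, also a ligand of the pathway without β-catenin, had 52.9, 0, 55.5, 27.8, 0, 30.4, 58.7 and 71.4, and was missing from BM5 and BM3. Wnt2b had 6.57, 0, 48.0, 0, 0, 20.3, 46.2 and 53.8, Wnt10a had 29.9, 0, 62.5, 0, 0, 0, 40.5 and 49.4, and Wnt9a had 66.2, 0, 11.4, 0, 0, 22.9, 0 and 48.9. For these 3 genes no group had a promoter peak in each of its libraries other than Lats1-CKO basal-like cells, where Wnt2b and Wnt10a had 2 of 2. At Wnt9a a region centered 1040 bp from the TSS was called in every library but BM5 and BM3. It was at 66.2, 40.5, 45.1, 72.7, 64.0 and 53.2 in BM1, BM2, BM6, BM7, BM4 and BM8. Only the BM1 peak reached the 1 kb window, so the promoter values of Wnt9a depend on the edge of that window.

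The promoter peak of Wnt7a was called in WT libraries only, at 11.9, 52.7 and 11.4 in BM1, BM5 and BM2, and not in BM6, so the WT values overlapped the zeros of the Lats1-CKO libraries. Inside the gene, an intronic region at chr6:91373036-91373319 was called in every library but BM3, of both genotypes, at 52.0 to 89.0. Wnt10b, a canonical ligand of the mammary gland, had weak peaks in BM2, BM6 and BM8, at 0.033, 18.7 and 12.8. All 3 were basal-like libraries, but BM4 had none. Wnt1, the ligand first found as a mammary oncogene, was called in BM1, BM2 and BM4, at 49.0, 36.1 and 17.9. Wnt8b had peaks at 8.20 in BM5 and 2.21 in BM6. Single peaks were called for Wnt3 in BM5 at 77.8, Wnt9b in BM5 at 28.5, Wnt16 in BM1 at 15.4, and Wnt4 and Wnt2 in BM7 at 21.3 and 1.23.

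Promoter peaks of Wnt5a, Sfrp2 and Sfrp4, genes that are also known for expression in stromal fibroblasts, were called in BM4 alone, at 42.5, 25.3 and 27.8. The Wnt5a peak lay beside an internal TSS, 6823 bp from the first. Outside the promoter window other libraries had peaks. In Sfrp2 a region 1746 bp from the nearest TSS was called in BM1, BM5 and BM2, at 15.4, 19.3 and 48.6, and in no Lats1-CKO library. In Sfrp4 a region 3499 bp from the nearest TSS was called in BM8 alone, at 29.2. Of 9 fibroblast markers, 6 had a promoter peak in BM4 and 5 in BM8, against 0 to 4 in the other libraries. Their summed percentile was 309 in BM4 and 230 in BM8, against 101 to 119 in the luminal libraries other than BM3, 0 in BM3, and 164 and 173 in WT basal-like cells. The collagen gene Col3a1 and Lum were at 0 in all 8 libraries. Of all protein-coding genes, 56.7% in BM4 and 57.8% in BM8 had a promoter peak, against 34.3% to 58.8% in the other libraries. The summed percentile of 6 immune markers was also highest in BM4 and BM8, at 203 and 235, against 0 to 163 in the others. That of 4 endothelial markers was 64.1 and 51.8, against 0 to 89.3. Whether fibroblasts had a part in these 3 peaks was not tested.

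Among the inhibitors, Sfrp1 stood alone with a broad peak at its start, at 91.1, 95.0, 94.9, 82.1, 30.2, 82.0, 96.0 and 48.4. The 4 WT libraries ranged from 82.1 to 95.0, and the Lats1-CKO libraries ranged from 30.2 to 96.0 and overlapped them. Dkk2 had promoter peaks in BM1 and BM2, at 29.9 and 56.7. A peak of BM8 in the same region, at 54.8, lay just outside the 1 kb window, so BM8 counted as 0. Dkk3, a family member that does not act on Lrp5 and Lrp6 as the others do, had no promoter peak but 11 regions in its body, of which chr7:112147995-112148393 was called in every library but BM3, at 64.3 to 87.0. No gene body peak of Dkk1, Dkk4 or Sfrp5 was called in any library.

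Comparison of Lats1-CKO with WT addressed whether loss of LATS1 moved the promoters of these genes. No difference passed the test. Two-sided exact permutation of the 8 libraries (70 splits) gave 0 of 14571 genes with a promoter peak an adjusted p under 0.05 (0%), and the smallest adjusted p was 1. The smallest p that 4 against 4 libraries allow is 0.0286, so an adjusted p under 0.05 would have needed 57.1% of all genes at that value. At an unadjusted p under 0.05 there were 163 genes, none of the 32. A limma fit of percentiles on genotype and population also called 0 genes, with 344 at an unadjusted p under 0.05. The median difference, Lats1-CKO minus WT, was -1.46 percentile points over the 32 genes and -1.28 over all genes tested. Of the 32 genes, 0 had each Lats1-CKO library above each WT library (0.398% of all genes) and 0 had each one below (0.721%).

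The largest differences between genotypes were at Sfrp1 (-26.6 points), Dkk2 (-21.6), Wnt3 (-19.5), Wnt7a (-19.0), Wnt1 (-16.8) and Wnt2b (16.5). At Sfrp1 the mean was 64.2 ± 30.2 in Lats1-CKO and 90.8 ± 6.03 in WT libraries (SD, n = 4 each), with p = 0.229 by the exact permutation test. For the other 5 the groups overlapped through libraries without a promoter peak. At Dkk2 the Lats1-CKO library BM8 had a peak in the same region, at 54.8, that lay outside the window and counted as 0. Without BM3 the difference was -15.3 at Sfrp1, with p = 0.343 by the exact permutation test, and 26.5 at Wnt2b, and the other 4 moved by less than 1.5 times.

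Without BM3, the Lats1-CKO libraries lay above the WT libraries at Fzd1 and Lrp6, that is 2 of 32 genes, against 10.3% of all genes, and 0 lay below (0.789%). The share among the Wnt pathway genes was thus not above that of genes in general, where the median difference was 4.83 points and that of the 32 genes 3.10. Lrp6 differed by 16.6 points, with p = 0.0286 by the exact permutation test, the smallest that 35 splits can give, and an adjusted p of 0.618. Fzd1 differed by 7.80 points, with p = 0.0571 by the exact permutation test and the same adjusted p. With BM3 the differences were -3.33 at Lrp6 and 5.31 at Fzd1, and the groups overlapped.

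**Figure D3:**
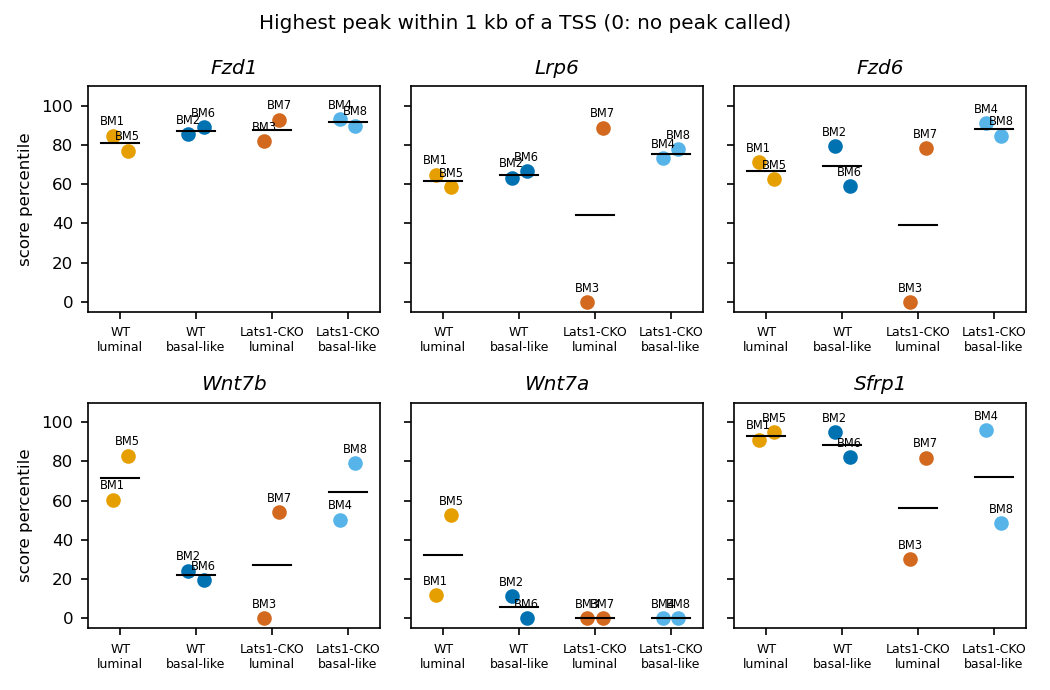
Score percentile (0 where no peak was called) of the highest peak within 1 kb of a TSS for 6 genes, with 1 point per library and a line at the mean of the 2 libraries of a group. BM7, BM4 and BM8 lie above the 4 WT libraries at Fzd1 and Lrp6, while BM3 lies among them at Fzd1 and at 0 at Lrp6.

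Luminal and basal-like cells were compared in the same way. By the exact permutation test, with the same floor, 0 of 14571 genes passed (0%), and 136 genes, none of the 32, had an unadjusted p under 0.05; limma called 0 genes, with 262 at an unadjusted p under 0.05. Over the 32 genes the median difference, basal-like minus luminal, was 5.53 points, and 5.59 over all genes. Without BM3 these were -0.43 and -0.44. None of the 32 genes had non-overlapping populations, against 0.727% of all genes above and 0.206% below in basal-like cells, or 0.727% and 2.88% without BM3. The largest differences were at Wnt11 (32.5 points), Wnt10a (30.6), Wnt2b (30.3), Fzd6 (25.6), Fzd9 (20.3) and Wnt3 (-19.5), and in each of them libraries of the 2 populations overlapped. Without BM3 the difference fell to 7.89 at Fzd6 and 11.7 at Fzd9, and those of the other 4 moved by less than 1.5 times. When BM6 was left out in place of BM3, Wnt2b, Wnt10a, Wnt11 and Fzd6 did not overlap, all higher in basal-like cells, against 2.55% of all genes in either direction.

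Wnt7b, a ligand expressed in mammary epithelium, was the only 1 of the 32 genes at which the genotype difference in promoter value had opposite signs in the 2 populations in every library. Lats1-CKO minus WT was -44.7 points in luminal cells, or -17.7 with BM7 alone, and 42.7 points in basal-like cells. The luminal values compare unlike peaks, since the highest peak lay in another region in BM7 than in BM1 and BM5. In luminal cells both Lats1-CKO libraries lay below both WT libraries and in basal-like cells both lay above, a pattern shared by 2.55% of all genes, whereas the opposite pattern was found in 0.0892% of them and at none of the 32 genes. The difference between the effects, 87.4 points, was not tested. Over the 4 libraries of each genotype the means were 45.9 ± 33.1 in Lats1-CKO and 46.9 ± 30.2 in WT (SD, n = 4), with p = 0.971 by the exact permutation test.

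Within 1 kb of a Wnt7b TSS, the highest peaks of the WT luminal libraries lay in a region beside an internal TSS, at 60.5 in BM1 and 83.0 in BM5. The Lats1-CKO luminal library BM7 had a weaker peak in the same region, at 22.9. No basal-like library had a peak there, nor had BM3. Without BM3 this region was called in each luminal and no basal-like library, as were 0.188% of all regions in genes. An upstream region at chr15:85583123-85583303, at -740 bp, was called in every library but BM3, at 40.0, 36.1, 24.3, 19.6, 0, 54.1, 50.3 and 79.0, and was highest in BM8. In this region BM7 lay above both WT luminal libraries, and BM4 and BM8 above both WT basal-like libraries. The intronic region at chr15:85574522-85574981 was called in all 8 libraries, at 91.2, 96.2, 88.3, 90.9, 32.7, 54.4, 97.7 and 50.2. The start of Wnt7b thus held a luminal peak and an upstream peak of both populations.

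**Figure D4:**
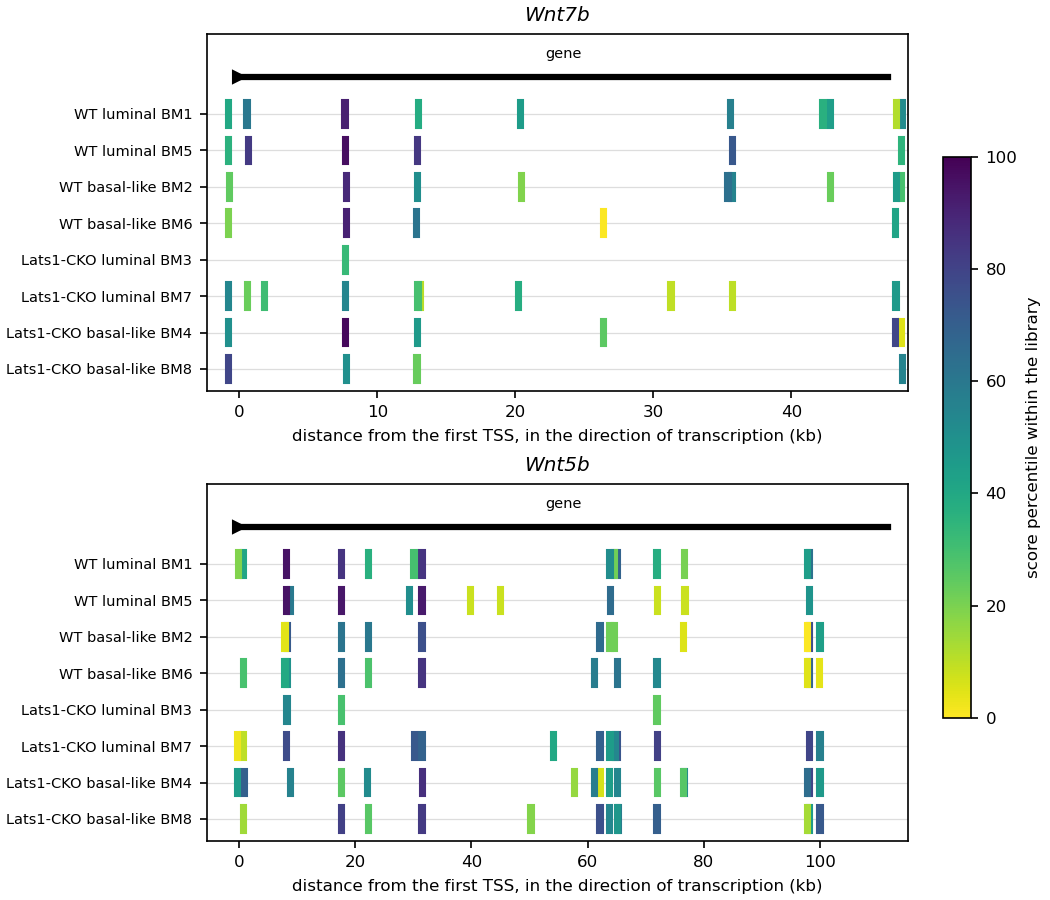
Peaks in and within 1 kb of Wnt7b (top) and Wnt5b (bottom) by distance from the first TSS in kb, 1 row per library; each bar is centered on a peak, has a fixed width and is colored by score percentile, and the black line is the gene. At Wnt7b the bar just inside the start is present in BM1, BM5 and BM7 only; at Wnt5b the bar near 8 kb is absent from BM8, and BM4 has a bar slightly farther from the start in its place.

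Over the 39 genes and their promoter windows, the peaks of the 8 libraries merged into 191 regions, of which 58 lay within 1 kb of a TSS. A peak in a single library made up 80 of them (41.9%, against 41.4% of all regions in genes) and 10 were called in all 8 libraries (5.24%, against 8.19%). Most lay in Wnt5b (28), Lrp5 (22), Lrp6 (18), Wnt9a (13), and Wnt7b and Dkk3 (11 each). The first 3 of these genes are 102 to 120 kb long, but Wnt9a is 26.6 kb long, and Dkk2, with 95.0 kb, held 5 regions. Wnt5b also held most gene body peaks in total, 94 over the 8 libraries. Gene body peaks of the 39 genes numbered 80, 59, 75, 52, 13, 89, 87 and 85 per library, or 8.58 to 11.0 per 10000 peaks of the library. The mean in Lats1-CKO exceeded that in WT by 2 peaks with BM3 and by 20.5 peaks without it.

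Genes with few or no promoter peaks could have strong peaks inside. Wnt4 had an intronic region at chr4:137287210-137287660, 9946 bp from its TSS, in all 8 libraries, at 77.0, 76.7, 85.2, 74.6, 19.0, 93.7, 88.1 and 98.7. The 3 Lats1-CKO libraries other than BM3 lay above the 4 WT libraries. By its highest gene body percentile Wnt4 was 1 of 3 of 36 genes in that position without BM3, with Fzd1 and Fzd7, against 12.0% of all genes with a gene body peak, and 0 of 36 lay below (0.710%). With BM3, 0 of 36 lay above (0.358%) or below (0.656%). The Fzd7 promoter peak lies upstream of the gene body, so its gene body value is that of another peak, in an exon. That value was 15.4, 0, 15.7, 0, 0, 28.8, 29.4 and 54.3. Wnt6 had a region at chr1:74773166-74773409, 1395 bp from its TSS and thus just outside the promoter window, in every library but BM3, at 60.1 to 93.0. Wnt9a had a like region 1426 bp from its TSS, at 56.2 to 91.0 in the same 7 libraries.

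No region of the 191 was called in every Lats1-CKO and no WT library, or the reverse, over all 8 libraries (0.00678% and 0.0620% of all regions in genes). Without BM3, the intronic Lrp5 region at chr19:3674243-3674391 had peaks in BM7, BM4 and BM8, at 2.26, 35.6 and 82.1, and in no WT library, 1 of 191 regions against 1.56% of all. None of the 191 was called in every WT library only (0.0639%). Between populations, 0 of 191 regions were called in every basal-like and no luminal library (0.0968%) or the reverse (0.00968%), and without BM3 only the Wnt7b region in luminal cells was, with 0 in basal-like cells (0.0978%).

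Some regions followed 1 group or the WT libraries in part, and these were picked after their values were seen. An intronic Wnt5b region was called in all luminal and both WT basal-like libraries, at 95.0, 95.2, 71.9, 49.1, 54.1 and 77.3, and in neither Lats1-CKO basal-like library. That pattern, judged without BM3, was found in 0.371% of all regions in genes, and BM4 had a separate peak nearby, at 55.7. A second Wnt5b region, at chr6:119526496-119527005, was called in all 8 libraries, at 25.3 to 93.9. At Wnt7a, an intronic region at chr6:91389331-91389580 was called in BM1, BM5 and BM2, at 52.9, 86.3 and 66.1, the same 3 WT libraries that had its promoter peak. An intronic Lrp6 region at chr6:134526330-134526525 was called in the same libraries, at 25.3, 95.1 and 82.3. BM6 had a peak in neither, so the WT group was not complete. In Sfrp1, a region 20553 bp from the TSS was called in BM1, BM5, BM2 and BM7, at 81.8, 36.1, 74.0 and 63.6.

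The starts of genes with no promoter peak were, by the median, the poorest in CpG dinucleotides. The CpG observed/expected ratio of 1 kb at the first TSS had a median of 0.446 for the 7 genes with no promoter peak, 0.629 for the 15 genes with a peak in 1 to 3 libraries, 0.817 for the 5 with 4 to 6 and 0.854 for the 12 with 7 or 8. Over 600 bp the medians were 0.466, 0.742, 0.991 and 0.871, so the order of the last 2 turned. In 1 kb of all protein-coding genes they were 0.194, 0.372, 0.613 and 0.741. Single genes often went against the order over 1 kb. Wnt7b had a ratio of 0.455 and peaks in 7 libraries, and Wnt4 and Lrp5 had 0.859 and 0.887 and peaks in 1 and 2. Among the genes with no promoter peak, Wnt3a, Wnt6 and Sfrp5 had 0.749, 0.731 and 0.666, above the median of 0.629 of the next class. This is a description across genes, which share libraries and are not independent replicates. The ratio was taken at the first TSS and the promoter peak at any TSS, so they can belong to different starts. The Wnt11 region called in 6 libraries was centered 2970 bp from the first TSS, and the Wnt10a region called in 4 was centered 1973 bp from it.

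**Figure D5:**
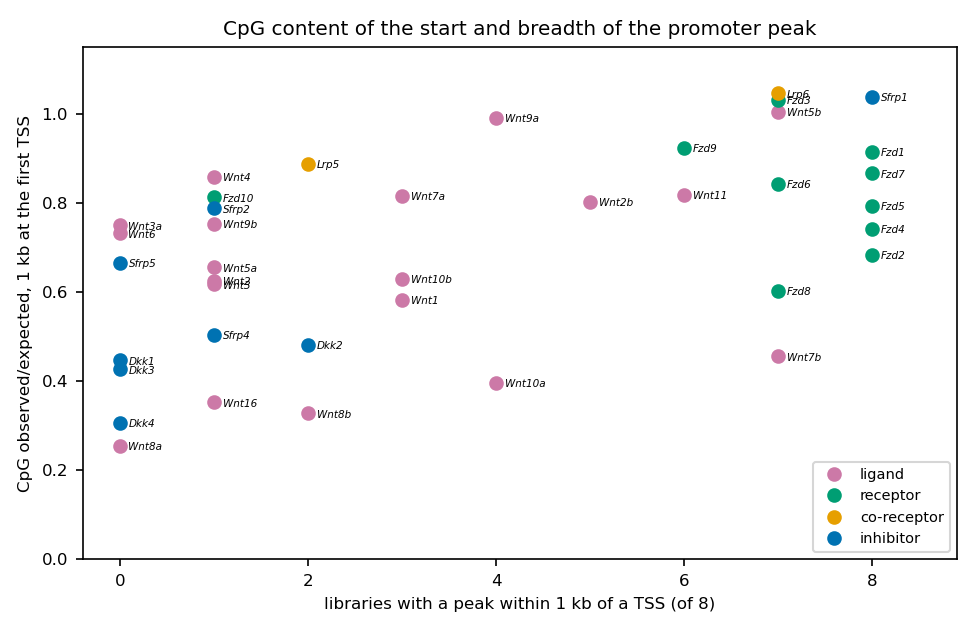
CpG observed/expected ratio of 1 kb at the first TSS against the number of libraries, of 8, that had a promoter peak, with 1 point for each of the 39 genes, colored by role. Genes marked in 7 or 8 libraries lie between 0.455 and 1.05, and those with no peak between 0.254 and 0.749.

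Motifs were counted in the central 300 bp of each region on both strands. A TCF/LEF core (CTTTGA), the site through which β-catenin acts, was found in 29 of the 191 regions (15.2%), against 17.9% of all regions of the 8 libraries. A TEAD core (GGAATG), the site of the factors that partner with YAP and TAZ, was in 42 (22.0%, against 21.03%), and an AP-1 motif (TGANTCA) in 42 (22.0%, against 29.5%). In the 58 regions near a TSS the shares were 17.2%, 6.90% and 6.90%, against 11.7%, 14.0% and 12.5% of all such regions; in a 200 bp window the TCF/LEF share turned, to 6.90% against 7.37%. Outside them they were 14.3%, 28.6% and 28.6%, against 18.5%, 22.3% and 31.8%. Each motif was counted by itself, so matches of different motifs may overlap, and a match says nothing of binding.

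Of 50 other genes of the pathway, from secretion to target genes, 46 had a promoter peak in at least 1 library. A promoter peak was called in all 8 libraries for 22 of the 50 (against 32.3% of all genes) and in none for 4 (against 33.6%). By the exact permutation test 0 passed in either comparison. Without BM3, Porcn, which lipid-modifies Wnt ligands, the R-spondin receptor gene Lgr5, and Dvl3, which relays the signal from Frizzled, were higher in each Lats1-CKO library than in each WT library, 3 of 46 genes against the 10.3% of all genes given above. Lgr5 had 25.3, 43.5, 26.5, 42.1, 16.8, 70.9, 75.1 and 51.8. Kremen1, a receptor for Dkk proteins, was the only 1 of the 50 whose populations did not overlap over all 8 libraries, against 0.206% of all genes lower and 0.727% higher in basal-like cells. It was at 87.1, 81.8, 85.9 and 57.1 in luminal and at 41.3, 37.5, 26.9 and 55.0 in basal-like libraries.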

How the data were processed

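ATAC-seq peak lists of 8 libraries, 2 for each of 4 groups, were used. The authors trimmed reads with cutadapt, aligned them uniquely to mm10 with bowtie 1.0.0, removed mitochondrial reads, duplicates (Picard) and long fragments, called peaks with MACS2 in each library separately and removed those on the ENCODE blacklist. The submitters' processing notes name MACS2 2.1.1.20160309 and Picard 2.3.0. The authors deposited 1 score per peak, at least 13 in each list, which was taken from its values to be that of MACS2 and is not normalized between libraries. The study discarded 1 Lats1-CKO luminal replicate, not named in its text, when merging replicates; both are kept here.

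Scores were turned into percentiles within each library. GENCODE M21 gave TSSs and gene bodies, and sequence was read from the GRCm38.p6 assembly, which is the build of mm10; some sequence is not reported here. An overlap of 1 bp counted. Regions were peaks of all 8 libraries merged where they touched. Differences were tested by two-sided exact permutation of libraries with Benjamini-Hochberg adjustment over all genes with a promoter peak, and with limma 3.58.1 (R 4.3.3) on genotype and population; python 3.11.15, numpy 2.4.6, pandas 2.3.3 and scipy 1.17.1 were used, and the code was tested on simulated data. Genes with every-library values were those with a peak in all 8 libraries, those whose groups did not overlap, the 6 with the largest difference in each comparison, the 5 with most regions, and Wnt4, Wnt5a, Wnt7b, Wnt10b, Fzd7, Lrp5, Lrp6, Sfrp1 and Dkk3; Fzd3, Fzd8 and genes with peaks in few libraries were added after their values were seen. The genes, lists and tests were chosen with earlier results of these data known. Alternatives were each library left out, the 10000 highest-scoring peaks, peaks above the median score, a distance of 5 kb, basic transcripts only, no filter, exchanges within populations, a cover of 50%, and other windows for motifs (200 bp) and CpG (600 bp).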

Additional observations from a re-analysis of the deposited data

Results flagged for a closer look

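BM3, a Lats1-CKO luminal library, was far from the other 3 Lats1-CKO libraries in 3 measures: its 14753 peaks, the 7 of 39 genes with a promoter peak, and the 13 gene body peaks of these genes. The other 3 Lats1-CKO libraries had 86279 to 99022 peaks, 18 to 20 genes and 85 to 89 gene body peaks. Chance flags about 1 in 20 groups by this rule, and the 3 measures all depend on the number of peaks called.

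At Wnt7b the promoter effect of genotype differed by 87.4 percentile points between basal-like and luminal cells, since the 2 Lats1-CKO libraries lay below both WT libraries in luminal cells and above both in basal-like cells. The same pattern was found in 2.55% of all genes, and BM3 had no promoter peak at Wnt7b. The difference was not tested. With BM7 as the only Lats1-CKO luminal library, the luminal effect was -17.7 in place of -44.7 points. The highest peak of BM7 lay in another region than those of BM1 and BM5. In that region, at -740 bp, BM7 was at 54.1, above BM1 and BM5 at 40.0 and 36.1.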

How the results depend on the processing

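By exact permutation 0 genes passed an adjusted p of 0.05 under each alternative, but a design of this size could hardly give another count, and exchanges within populations allow no p below 0.0556, so these counts say nothing of stability. The limma fit, which has no such floor, called 0 genes in each comparison. Leaving out 1 library at a time gave 0 to 2 of 32 genes with non-overlapping genotypes: 2 (Fzd1 and Lrp6) without BM3, against 11.1% of all genes in either direction, 1 (Wnt7a) without BM6, against 2.72%, and 1 (Sfrp1) without BM4, against 2.17%. For populations the range was 0 to 4, with 4 without BM6, against 2.55% of all genes, 1 (Fzd1) without BM7, against 4.31%, and 1 (Wnt10b) without BM4, against 1.41%. Regions called in each library of 1 genotype only numbered 0 to 4 of 191, with 4 (in Lrp6, Sfrp2 and Wnt7a) without BM6, against 0.489% of all regions in genes, and 1 (Lrp5) without BM3, against 1.62%. Those of 1 population only numbered 0 to 2, with 2 (Wnt5b) without BM1, against 0.291%. With windows of 5 kb in place of 1 kb, 1 region followed genotype, and the sign of the genotype difference changed at 8 of the 32 genes. With the 10000 highest-scoring peaks, the genotype differences at Wnt1, Wnt2b, Wnt3 and Wnt7a, among the largest in the main setting, were 0. Gene body peaks differed by 2 per library, Lats1-CKO minus WT, by 20.5 without BM3, by -4.83 to 6.5 without any other library, and by -1.20 per 10000 peaks of the library. In a 200 bp window the TCF/LEF, TEAD and AP-1 motifs were in 10.5%, 16.2% and 18.8% of the 191 regions, against 11.6%, 15.8% and 26.1% of all regions. No read counts were used, so a peak that was not called may be a matter of depth, and weak peaks near the bottom of a library may not be called again.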
